A study of Marchantia polymorpha with 6 samples.

Results

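The core of nuclear auxin signalling was examined in thalli of the liverwort Marchantia polymorpha through 4 genes, chosen by their deposited identifiers. They are the receptor MpTIR1 (Mapoly0035s0062.v3.1), the repressor MpIAA (Mapoly0034s0017.v3.1), the activating response factor MpARF1 (Mapoly0019s0045.v3.1) and the repressing response factor MpARF2 (Mapoly0011s0167.v3.1). The names came with the choice of identifiers, since the deposited table itself holds no gene names. All 4 were found among the 19287 gene models of the table, and all 4 were among the 12313 models that passed the filter on low counts.

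The study compared wild-type plants of the male accession Tak-1 with Mpbes1, a CRISPR/Cas9 mutant of the BES1 transcription factor gene, in 3 libraries each. Thalli with their apical notches were taken from untreated plants of both genotypes after 30 days on solidified Gamborg medium, with days of 16 h light at 22 °C and nights of 8 h at 20 °C. The design text states that each library came from a different plant. Whether the 3 mutant plants descended from 1 edited line, and which edit they carried, is not given in the sources used here. The transcript of the edited gene and markers of thallus tissue were not analysed here, because the deposited identifiers of those genes are not paired with names.

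In the auxin pathway, TIR1 is the F-box subunit of a ubiquitin ligase, and auxin acts as the glue that holds a TIR1 protein to an Aux/IAA protein. The Aux/IAA protein is then degraded. While present, it binds activating ARF transcription factors and brings corepressors of the TOPLESS family to their target genes. ARFs of the class of MpARF1 activate auxin-responsive genes once the Aux/IAA is gone, while ARFs of the class of MpARF2 do not depend on auxin and repress genes through the same DNA elements, so that the balance between activating and repressing ARFs sets how strongly a cell can respond. Marchantia is widely used to study this system because it carries the components with very little redundancy, and auxin there controls the apical notch, gemma cups, gemmae and rhizoids. Because receptor and repressor act through protein turnover, transcript levels describe the supply of the components and not the activity of the pathway.

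All 4 transcripts were well expressed in both genotypes, with 1564 to 4995 reads per gene and library out of 11597664 to 17741253 reads in the library. MpIAA and MpARF2 were lower in the mutant, with log2 fold changes of -0.25 each, in a comparison in which 40.4% of all tested genes were called and 21.1% were called lower. The MpIAA call was lost in 5 of the 6 fits that left out 1 library and when libraries were scaled by total counts only. Of the same 6 fits, the MpARF2 call was kept in 4 and lost in the others. The activator MpARF1 and the receptor MpTIR1 gave changes close to 0 that did not pass the test. The ratio of MpARF1 to MpARF2 transcript was higher in all 3 mutant libraries than in any wild-type library (exact permutation test, p = 0.10, the smallest possible), as the ratios of 57.1% of all pairs of tested genes were apart in one direction or the other.

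The gene models differed in architecture. Positions count from 1 and follow the deposited table, whose genome build no source used here states. MpTIR1 lies on the minus strand of scaffold_35 from 662197 to 669363 in 3 exon blocks, and MpIAA on the minus strand of scaffold_34 from 145657 to 150235 in 5 exon blocks. An exon block is a stretch of exon after exons of all isoforms are merged. In both genes the block at the 5' end made up most of the exon sequence, 4324 of 6083 bases in MpTIR1 and 2916 of 4061 bases in MpIAA. The ARF genes were cut into many more pieces. MpARF1, on the minus strand of scaffold_19 from 399142 to 406810, and MpARF2, on the minus strand of scaffold_11 from 1859127 to 1866228, each had 14 exon blocks, with 4059 and 5088 exon bases. Of all models in the table, 91.9% had fewer blocks than the ARF genes. All 4 models were long, with exon lengths above those of 89.28% of all models for MpARF1 and up to 97.7% for MpTIR1.

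**Figure D1:**
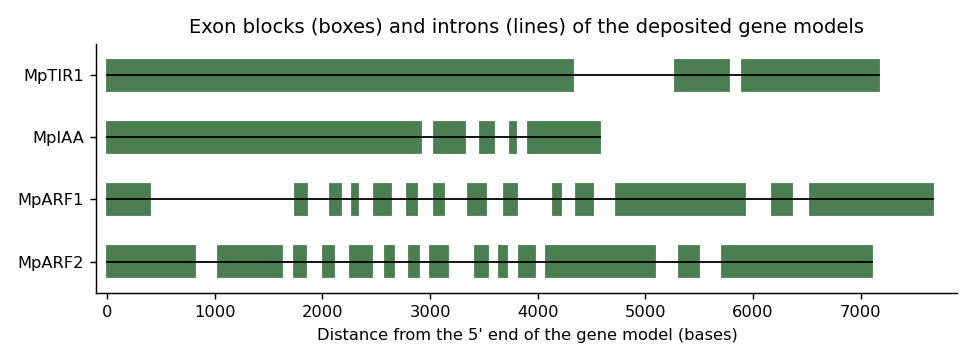
Exon blocks (green boxes) and introns (black lines) of the 4 deposited gene models, drawn to scale from the 5' end of each model in bases. MpTIR1 and MpIAA each have a dominant first block, whereas MpARF1 and MpARF2 each have 14 blocks.

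The MpARF1 model contains 28 exon entries that reduce to 15 distinct ones. They describe transcripts that differ in where 1 exon ends, at 402298 or at 402307, a difference of 9 bases on an exon whose other end is at 402451. The deposited counts are per gene, so these isoforms were not told apart. MpARF2 was the member that overlapped another model, one on the plus strand from 1865179 to 1867592 that shares 609 exon bases with it, 11.97% of the exon length of MpARF2. The strand setting of the counting is not given in the sources used here, so how reads in the shared stretch were assigned is unknown. The overlapping model itself had 1 read over all 6 libraries.

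Levels are given as CPM, reads per 1000000 reads of the library, with TMM factors for composition, and changes as log2 fold changes of Mpbes1 against Tak-1. A gene was called when its p from edgeR's quasi-likelihood test, adjusted by Benjamini-Hochberg over all tested genes, was under 0.05. By this rule 40.4% of all tested genes were called, 19.3% as higher and 21.1% as lower in the mutant. Of the 4 auxin genes, 2 were called, both as lower and none as higher. With 4 genes, a count of 2 is near the background of 40.4% and is not a result about the group. The median log2 fold change was -0.16 over the 4 genes and 0.01 over all tested genes. In bulk thallus, fewer cells that express a gene and less RNA per cell cannot be told apart.

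The receptor MpTIR1 was at 160, 149 and 139 CPM in the Tak-1 libraries and at 142.0, 142 and 140.4 CPM in the Mpbes1 libraries. The mutant values lay inside the wild-type range and very close to each other. The estimated log2 fold change, -0.08 with an SE of 0.07, did not pass the test (edgeR adjusted p = 0.38), and its 95% interval ran from -0.23 to 0.07. In linear terms that interval spans changes of -14.7% to 4.96%, so larger changes of this transcript lie outside it.

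The repressor MpIAA was at 296, 357 and 335 CPM in Tak-1 and at 289, 264 and 277 CPM in Mpbes1. The groups did not overlap, but the lowest wild-type library and the highest mutant library were only 6.24 CPM apart. The mean fell from 329 ± 31.2 to 276 ± 13.0 CPM (SD, n = 3 each), which is -0.25 ± 0.08 on the log2 scale (SE; edgeR adjusted p = 0.033) with a 95% interval from -0.44 to -0.07. In linear terms it fell by 16.0%. Without the first Tak-1 library the call was kept (log2 fold change -0.32, adjusted p = 0.0088). It was lost when any of the other 5 was left out, with log2 fold changes of -0.28 to -0.19 and adjusted p of 0.058 to 0.15. It was also lost when libraries were scaled by total counts only (log2 fold change -0.21, edgeR adjusted p = 0.067).

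The activator MpARF1 was at 164, 170.3 and 153 CPM in Tak-1 and at 165, 153 and 156 CPM in Mpbes1, so the ranges overlapped almost fully. Its log2 fold change of -0.04 ± 0.07 (SE) was the smallest of the 4 in size and did not pass the test (edgeR adjusted p = 0.68). The 95% interval reached from -0.19 to 0.11, and the sign turned to 0.0039 when libraries were scaled by total counts only (edgeR adjusted p = 0.97).

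The repressing factor MpARF2 was at 284, 289 and 255 CPM in Tak-1 and at 232, 232 and 232 CPM in Mpbes1. Every mutant library lay below every wild-type library, with 22.4 CPM between the groups. The mean fell from 276 ± 18.3 to 232 ± 0.417 CPM (SD, n = 3 each), which is -0.25 ± 0.07 on the log2 scale (SE; edgeR adjusted p = 0.016) with a 95% interval from -0.41 to -0.09. In linear terms it fell by 15.9%. The coefficient of variation of 0.180% among the mutant libraries was smaller than the 1.76% expected from read counting alone, so the SD of those 3 values understates their error. The same holds for MpTIR1 in the mutant, with 0.625% against 2.26%. The MpARF2 call was lost without the first Mpbes1 library (log2 fold change -0.25 with an SE of 0.09, adjusted p = 0.062) and without the second (-0.24 with an SE of 0.09, adjusted p = 0.069), and was kept in the other 4 such edgeR fits.

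**Figure D2:**
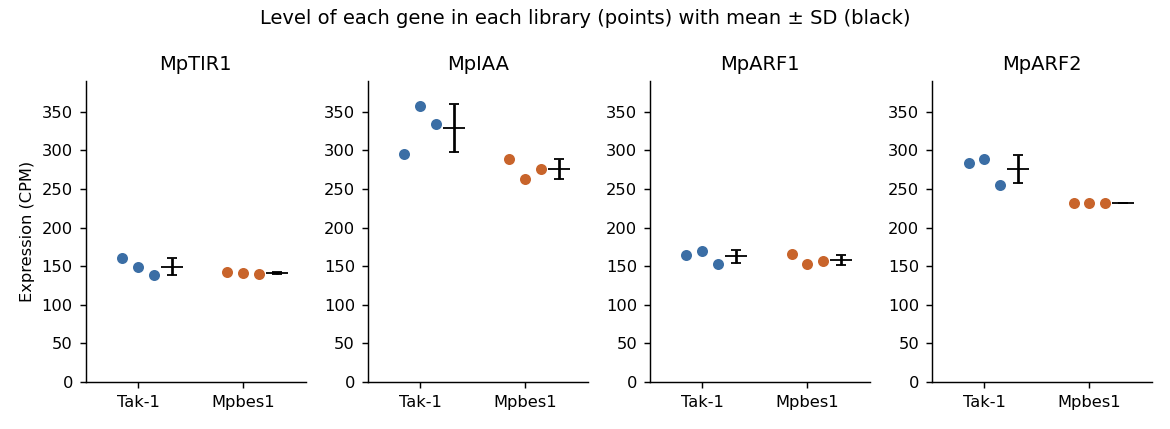
Expression in CPM (linear axis from 0) of each gene in the 3 Tak-1 libraries (blue points) and the 3 Mpbes1 libraries (orange points), with the mean ± SD in black. The groups are apart for MpIAA, by 6.24 CPM, and for MpARF2, by 22.4 CPM, and overlap for MpTIR1 and MpARF1.

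Groups of CPM values that do not overlap were found for 2 of the 4 genes, against 53.2% of all tested genes. In size, the changes were ordinary for this mutant. The median absolute log2 fold change was 0.23 over all tested genes and 0.16 over the 4 genes. MpIAA and MpARF2 stood above 53.6% and 53.2% of tested genes in absolute log2 fold change, MpTIR1 above 20.2% and MpARF1 above 9.78%. By mean CPM, all 4 stood high among tested genes, from MpTIR1, above 88.6% of them, to MpIAA, above 95.96%. CPM is not divided by exon length, and all 4 models exceed the median of 2394 exon bases of tested genes. The rank is therefore one of reads and not of transcript abundance.

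**Figure D3:**
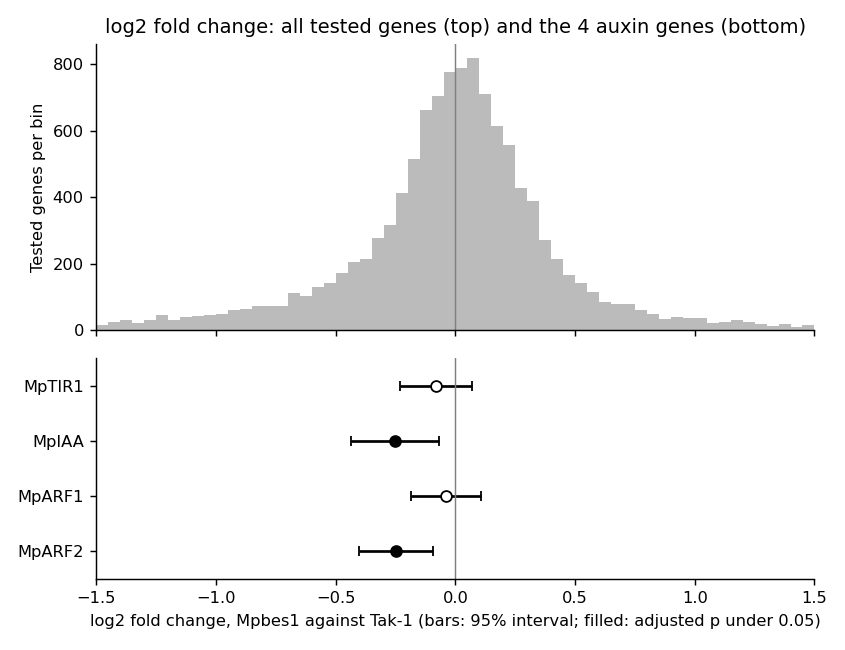
Top, log2 fold changes of all tested genes in bins of width 0.05, shown from -1.5 to 1.5 (genes beyond are not drawn). Bottom, the 4 auxin genes on the same axis with 95% intervals, filled where the edgeR adjusted p was under 0.05. The intervals of MpIAA and MpARF2 lie wholly below 0, and all 4 estimates fall within the bulk of the distribution.

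Levels of different genes were compared after division by exon length, as RPKM, the CPM per kilobase of exon. The order was the same in both genotypes, with MpIAA highest, then MpARF2, MpARF1 and MpTIR1. In Tak-1 the levels were 81.1 ± 7.69 RPKM for MpIAA, 54.2 ± 3.60 for MpARF2, 40.1 ± 2.14 for MpARF1 and 24.6 ± 1.78 for MpTIR1 (SD, n = 3). In Mpbes1 they were 68.1 ± 3.19, 45.6 ± 0.0819, 39.02 ± 1.55 and 23.2 ± 0.145 RPKM in the same order. The ranges over libraries of genes next to each other in the order did not overlap in either genotype. Before the division, the Tak-1 ranges of MpARF1 (153 to 170.3 CPM) and MpTIR1 (139 to 160 CPM) overlapped, while their Mpbes1 ranges did not. The step between these genes in Tak-1 thus rests on the annotated exon lengths. By group means, MpARF2 and MpARF1 were the neighbours closest to each other. MpARF2 exceeded MpARF1 by a ratio of 1.35 ± 0.0251 in the wild type and of 1.17 ± 0.0472 in the mutant (SD, n = 3).

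Ratios of 2 transcripts within a library need no scaling between libraries, so they are free of the choice of normalization that affected the MpIAA call. All 6 ratios between the 4 genes were formed from counts per kilobase of exon and compared with an exact permutation test over libraries, for which 0.10 is the smallest p that 3 against 3 allows and no ratio could therefore pass. For 3 of the 6 the genotypes did not overlap. Over all pairs of tested genes the share was 57.1%, so such separation is common in this comparison and the count is no sign of anything particular to these genes.

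The ratio of activating to repressing response factor, MpARF1 to MpARF2, was 0.726, 0.739 and 0.754 in the Tak-1 libraries and 0.896, 0.829 and 0.843 in the Mpbes1 libraries. The gap between the genotypes was wider than the range within either. The wild-type values were close together, but counting errors in Tak-1 averaged 2.22% for MpARF1 and 1.71% for MpARF2. Their closeness therefore cannot measure the spread between plants. The means were 0.740 ± 0.0137 in the wild type and 0.856 ± 0.0352 in the mutant (SD, n = 3), a difference of 0.21 on the log2 scale or 15.6% (exact permutation test, two-sided, p = 0.10; 0.20 after adjustment over the 6 ratios). MpARF2 transcript remained the more abundant of the pair in every library. With any 1 library left out the log2 difference was 0.18 to 0.23.

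The depth behind this ratio can be seen from the summed reads of the 2 genes, 4596 to 7022 per library. MpARF1 gave 36.7% of them in the first Tak-1 library (95% Wilson interval 35.5 to 37.9), 37.1% in the second (35.9 to 38.3) and 37.6% in the third (36.2 to 39.0). In the Mpbes1 libraries it gave 41.7% (40.3 to 43.1), 39.8% (38.4 to 41.2) and 40.2% (39.1 to 41.4). The intervals cover counting error only. Within a genotype the intervals overlapped, and the interval of the third Tak-1 library also overlapped that of the second Mpbes1 library, so the separation of those 2 is at the limit of the counting error.

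MpARF1 relative to MpIAA, the activator against the repressor that binds it, was 0.556, 0.477 and 0.458 in Tak-1 and 0.572, 0.582 and 0.566 in Mpbes1. The mutant libraries were again higher, but the first Tak-1 library nearly reached them. Counting errors in Tak-1 averaged 2.22% for MpARF1 and 1.56% for MpIAA, so the gap from 0.556 to 0.566 lies within counting error. The log2 difference was 0.21, and 0.15 to 0.30 with any 1 library left out (exact permutation test, two-sided, p = 0.10; 0.20 adjusted).

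MpARF2 relative to the receptor MpTIR1 was 2.11, 2.32 and 2.19 in Tak-1 and 1.95, 1.96 and 1.98 in Mpbes1. The mutant libraries were all lower and close together, with a log2 difference of -0.17 (exact permutation test, two-sided, p = 0.10, and 0.20 adjusted). Counting errors in the mutant averaged 1.76% for MpARF2 and 2.26% for MpTIR1, so this closeness cannot measure the spread between plants. For MpIAA relative to MpTIR1 the log2 difference was also -0.17, but the ratio of 2.76 in the first Tak-1 library lay below all 3 mutant values, of 3.05, 2.78 and 2.95, and the groups overlapped (exact permutation test, p = 0.40). The other Tak-1 libraries were at 3.597 and 3.61. This difference was -0.30 without the first Tak-1 library and -0.11 without the second or the third.

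The 2 remaining ratios differed little in their means. MpARF2 to MpIAA averaged 0.673 ± 0.0826 over the Tak-1 libraries and 0.671 ± 0.0321 over the Mpbes1 libraries (SD, n = 3), with a log2 difference of 0.0019 (exact permutation test, p = 1.0). The mean proportion of the repressor transcripts to each other thus moved little while both were lower. Between wild-type plants that proportion ranged from 0.607 to 0.766, and with any 1 library left out the log2 difference was -0.07 to 0.10. MpARF1 to MpTIR1 was 1.63 ± 0.0915 in Tak-1 and 1.68 ± 0.0628 in Mpbes1, with a log2 difference of 0.04 (exact permutation test, p = 0.60) that was -0.01 without the first Tak-1 library, 0.07 without the second and in between without any other. These p-values do not show that the ratios were equal.

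**Figure D4:**
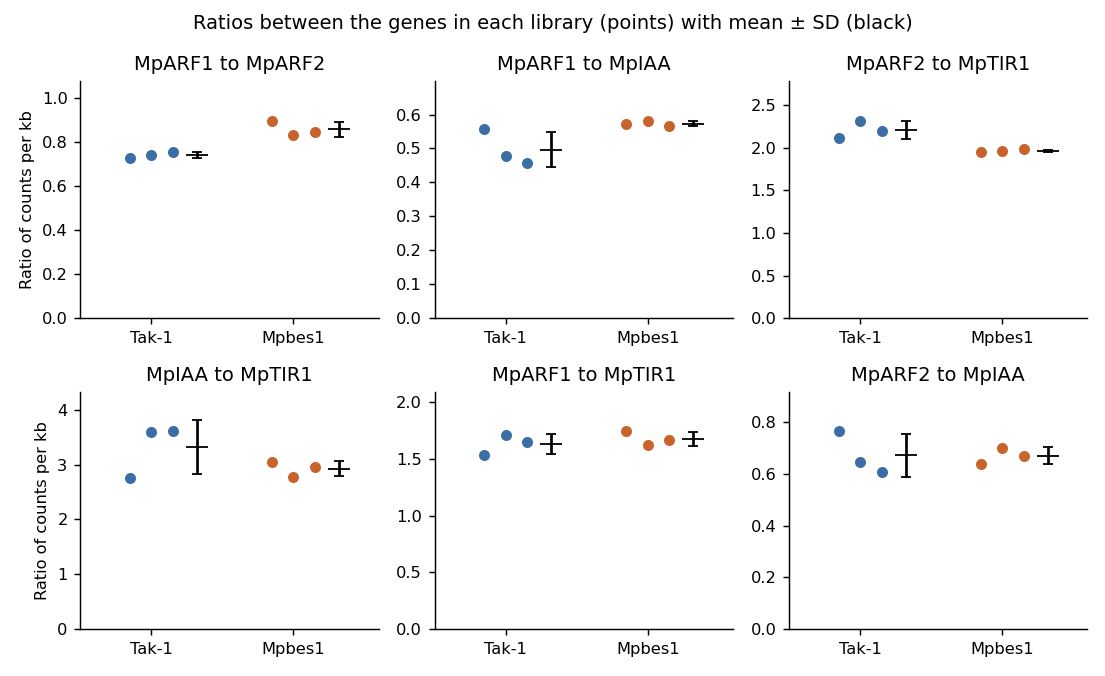
Ratios of counts per kilobase of exon between the genes in each Tak-1 library (blue) and Mpbes1 library (orange), on linear axes from 0, with the mean ± SD in black. The genotypes are apart in the upper row, including MpARF1 to MpARF2 at 0.726 to 0.754 against 0.829 to 0.896, and overlap in the lower row.

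As shares of the 4 transcripts together, each counted per kilobase of exon, MpIAA made up 40.5% ± 2.89 in the wild type and 38.7% ± 0.801 in the mutant (SD, n = 3). MpARF2 made up 27.1% ± 1.31 and 25.9% ± 0.716. The share of MpTIR1 was 12.3% ± 1.04 and 13.2% ± 0.341. These 3 shares overlapped between the genotypes. The share of MpARF1 was 19.6% to 20.7% in Tak-1 and 21.96% to 22.5% in Mpbes1, a difference of 2.13 percentage points (exact permutation test, two-sided, p = 0.10; 0.40 adjusted over the 4 shares). The level of MpARF1 itself was not higher in the mutant, with means of 163 and 158 CPM, and how often such shares separate among other genes was not tested. The sum of the 4 genes was 882 to 965 CPM in Tak-1 and 791 to 828 CPM in Mpbes1.

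CPM values spread more among the wild-type libraries than among the mutant libraries for all 4 transcripts. The coefficients of variation of CPM in Tak-1 were 7.26% for MpTIR1, 9.49% for MpIAA, 5.34% for MpARF1 and 6.64% for MpARF2, against 0.625%, 4.69%, 3.97% and 0.180% in Mpbes1. The mutant values of MpTIR1 and MpARF2 lie below their counting errors of 2.26% and 1.76%, so they cannot measure the spread between plants. The spread was not tested, since 3 libraries per genotype give little information on it. How often the wild-type spread was the larger among other genes was not tested either. The wild-type libraries also did not share 1 pattern. The first was highest in MpTIR1 and lowest in MpIAA, the second was highest in MpIAA, MpARF1 and MpARF2, and the third was lowest in MpTIR1, MpARF1 and MpARF2.

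The genes next to the members on their scaffolds behaved in different ways. MpTIR1 stands apart from its neighbours, with 19913 bases to the model on the lower side and 9250 bases to the model on the higher side. Both of these were called as lower in the mutant, by -0.33 ± 0.08 on the log2 scale (SE; edgeR adjusted p = 0.0050) and by -0.33 ± 0.12 (adjusted p = 0.043), while MpTIR1 between them was not. Over all tested genes 21.1% were called lower, and the difference between MpTIR1 and these neighbours was not tested. The nearest expressed neighbour of MpIAA, at 128663 to 134303, gave a value of -0.0012 on the log2 scale, with an SE of 0.07 (edgeR adjusted p = 0.99). Its neighbour on the other side had 0 reads in all libraries. MpARF1 lies 334 bases from a model on the same strand at 407145 to 409004 with a mean of 17.0 ± 0.346 CPM in the wild type and 16.1 ± 0.981 CPM in the mutant (SD, n = 3; edgeR adjusted p = 0.58). The models on both sides of MpARF2, the overlapping one and one at 1852785 to 1858983 that lies 143 bases away, had 0 or 1 read in any library.

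For each member, the tested gene with the most similar profile was sought among 10617 genes with a mean of at least 5 CPM, by Pearson's r of log2 CPM over the 6 libraries. These values describe 6 points that share libraries and scaling, and since the genes were picked for their likeness, their differences between the genotypes are given with no test. For MpTIR1 it was Mapoly0007s0152.v3.1 (r = 0.993), whose mean was 126 ± 8.80 CPM in the wild type and 120.3 ± 1.32 CPM in the mutant (SD, n = 3). For MpIAA it was Mapoly0103s0038.v3.1 (r = 0.990), at 141 ± 13.3 and 118 ± 7.03 CPM in the same order. For MpARF1 it was a gene on scaffold_113 from 336592 to 343613 (r = 0.985), and for MpARF2 a gene on scaffold_107 from 484820 to 496629 (r = 0.999), whose fitted log2 fold change of -0.43 was larger in size than that of MpARF2 itself. An r above 0.95 was reached by 246 genes for MpARF2, 64 for MpIAA, 30 for MpTIR1 and 8 for MpARF1, so the profile of MpARF2 was the most widely shared of the 4. The members themselves were left out of the search.

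**Figure D5:**
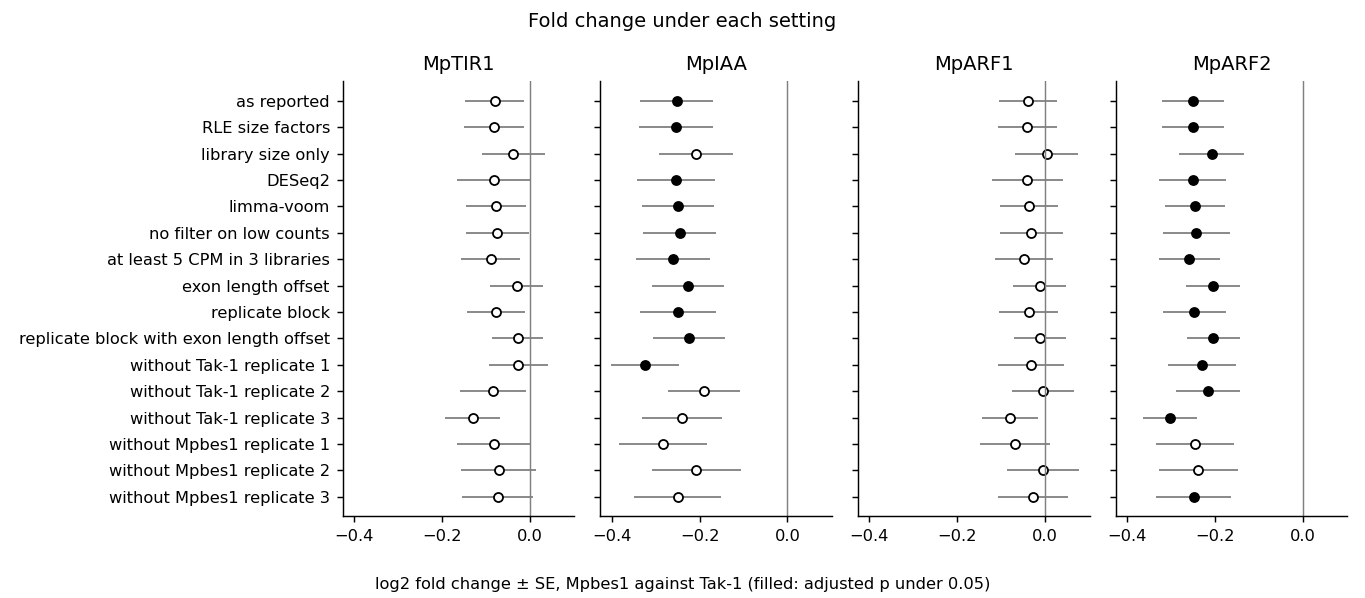
Log2 fold change of Mpbes1 against Tak-1 with its SE for each gene as reported and under 15 other settings, filled where the adjusted p was under 0.05. MpARF2 is filled in 14 of the 16 fits and MpIAA in 10, whereas MpTIR1 and MpARF1 are filled in none.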

How the data were processed

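Whole-number read counts per gene model, not normalized, were deposited for each library beside the exon length of each model, in a featureCounts layout per the file headers. Tools named in the submitters' processing notes are edgeR, featureCounts 1.5.1 and STAR 2.5.2b. The poly(A) library kit was strand-specific and RNA integrity numbers exceeded 7, per the labels' protocols. No source used here gives the genome build, the strand setting or the handling of multiply aligned reads.

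Counts of all genes were fitted with edgeR 4.0.16 (R 4.3.3; TMM, filterByExpr, robust quasi-likelihood fit, genotype as the only term) over all 6 libraries, with Benjamini-Hochberg adjustment over the 12313 tested genes. Standard errors come from the F statistic, and 95% intervals from its degrees of freedom. RPKM is CPM per kilobase of exon. Ratios and shares were tested with exact permutation tests (scipy 1.17.1). Only the fits of edgeR, DESeq2, limma-voom and edgeR with an offset for exon length were tested on simulated data. Alternatives were RLE factors, total counts only, DESeq2 1.42.0, limma-voom 3.58.1, filters of none and of 5 CPM in 3 libraries, an offset for exon length, a replicate block, 0.5 counts added to ratios, shares of raw counts, and each library left out.

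The genes named are the 4 members, for each member the most similar gene by Pearson's r, with at most 2 unnamed identifiers printed per direction, and their neighbours by position. The members and lists were chosen with earlier results of these data known. A planned list of other auxin pathway genes was not filled, and sequences are not shown, because 0 of the 19287 deposited identifiers occur in the reference table, of another assembly, MpTak2_v7.1.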

Additional observations from a re-analysis of the deposited data

How the results depend on the processing

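Of 145 alternative values for 15 results, 136 were counted as the same. That meant the same call in the same direction, a count within 1.5 times, or a move by less than the SD between replicates. The last limit, used for ratios and shares, could not be passed with 1 library left out. Dropping 1 of 3 libraries always moves a group mean by less than that. Those values are therefore no evidence of stability, and they include changes of sign, as for MpARF1 to MpTIR1 (0.04, but -0.01 without the first Tak-1 library). For MpIAA the log2 fold change was -0.21 with total counts only (edgeR adjusted p = 0.067) and -0.32 to -0.19 with 1 library left out (adjusted p 0.0088 to 0.15). For MpARF2 it was -0.30 to -0.22 with 1 library left out (adjusted p 0.0056 to 0.069) and -0.26 to -0.20 under the 9 other settings, with a call in all 9. The log2 fold change of MpARF1 turned to 0.0039 with total counts only, an uncalled value. The cause of these shifts was not tested. Fits with 1 library left out also rest on fewer libraries. The number of called genes was 4976, of which 47.8% rose, and 3974 to 4808 with 1 library left out. Replicate numbers were not taken to pair the samples, since deviations of same-numbered libraries correlated at 0.17, -0.03 and 0.14. The replicate block gave 5248 calls, and the log2 fold changes of MpIAA and MpARF2 were -0.25 and -0.25 under it (adjusted p = 0.042 and 0.019). All planned settings were run. Depth did not limit the detection of the 4 genes, whose counting error was 1.56% to 2.32% per library on average, but 3 libraries per genotype limit what the tests of ratios can show.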
